A study of Homo sapiens with 51 samples.

Results

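The interval between 24 h and 36 h of combined Activin and BMP4 treatment was examined in H1 cells, a long-established line of human embryonic stem cells. It covers 6 of the study's 51 RNA sequencing libraries, 3 labelled 36 h and 3 labelled 24 h, and they were chosen by those labels alone. At both times the cells had been given Activin at 100 ng/mL and BMP4 at 10 ng/mL. They had also left their maintenance medium, mTeSR1, for TeSR E5 with insulin at 3.2 µM, FGF2 at 20 ng/mL and a compound that the labels spell LY29004 at 1 µM. The same interval with BMP4 alone at 50 ng/mL, in 3 libraries at 36 h and 3 at 24 h in the same medium, served as the comparison. The study as a whole followed untreated cells and both conditions over 8 times between 1 h and 96 h, in 17 groups of 3 libraries. All libraries came from this 1 line, and the labels number the replicates without saying whether they were grown apart. The p-values therefore cover the spread among these libraries, which may be technical.

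In the embryo, pluripotent epiblast cells meet NODAL, WNT and BMP signals and gather in the primitive streak, where they switch on the T-box factors TBXT and EOMES and the homeobox factor MIXL1. Cells leave the streak either as mesoderm, marked by MESP1, PDGFRA and APLNR, or as definitive endoderm, marked by SOX17, GATA6 and FOXA2. Activin binds the receptors that NODAL uses and stands in for it in culture, whereas BMP4 favours posterior streak, mesoderm and amnion. Secreted inhibitors such as LEFTY1, CER1 and DKK1 are made by the responding cells and limit NODAL, BMP and WNT signalling in turn.

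The 6 libraries held 22.9 M to 24.9 M counts each. Levels are CPM, the counts of a gene per 1 M counts of the scaled library, given per library or as mean ± SD over 3 libraries. Log2 changes carry an approximate standard error, the size of the change divided by the square root of the F statistic of its test. CPM does not correct for gene length, so levels are compared within a gene only. At 36 h replicate 2 stood somewhat apart: its chi-square per degree of freedom over all genes was 10.8 to replicate 1 and 16.2 to replicate 3, against 4.22 between those 2, while pairs at 24 h lay between 3.57 and 6.17. Calls of named genes between 36 h and 24 h that were lost without it are given beside their values. Mitochondrially encoded genes took 2.66 to 3.02% of counts at 36 h and 2.03 to 2.80% at 24 h, with overlap, and none of these 13 genes was called (median log2 0.31). The part of that share in other results was not tested.

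The labels call the cells embryonic stem cells, and after treatment markers of stem cells and of the streak were both present. The 6 embryonic stem cell markers summed to between 6299.8 and 6313 CPM at 36 h and between 7001 and 7135 CPM at 24 h. The 3 streak markers summed to between 829.7 and 853 CPM at 36 h and between 314 and 334 CPM at 24 h. The 3 nascent mesoderm markers summed to 41.5 to 42.7 CPM at 36 h and 3.04 to 3.41 CPM at 24 h, most of it APLNR. Amnion markers were present too, with a sum over 4 genes of 21.8 to 24.1 CPM at 36 h and 19.6 to 22.7 CPM at 24 h. Most of that sum was TFAP2A, which was at 1.45 ± 0.552 CPM in untreated cells. Of the 4 definitive endoderm markers, FOXA2 and CXCR4 were under 1 CPM at 36 h, so SOX17 carried most of their sum of 18.9 to 21.6 CPM at 36 h, against 2.29 to 3.49 CPM at 24 h. Trophoblast markers were at 0 counts for 2 of 4 genes at 36 h and for 4 of 4 at 24 h, and the defining markers SOX1 and PAX6 of neural ectoderm and CDH5, PECAM1, TAL1 and SPI1 of endothelium and blood were each under 1 CPM at both times. Less specific genes of these lists were well above that, such as NES, a filament protein, at 337 ± 11.2 CPM at 36 h and 311 ± 3.29 CPM at 24 h, and KDR, a VEGF receptor, at 384 ± 6.99 CPM at 36 h and 336 ± 9.25 CPM at 24 h. In such bulk cultures, more cells of a type and more RNA per cell cannot be told apart.

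Genes that passed the thresholds given here went up far more often than down in these 12 h. Of 19603 genes tested, 405 were higher at 36 h (2.07% of those tested) and 115 were lower (0.587%), so that 520 (2.65%) passed both thresholds, an edgeR quasi-likelihood Benjamini-Hochberg adjusted p below 0.05 and a change of 2-fold or more. Such genes are named called. With no limit on the size of the change, 3911 genes (20%) had an adjusted p below 0.05, and the median log2 change of all genes tested was 0.0025. The 3 libraries of each time did not overlap for 393 of the 405 and 110 of the 115, compared with 6978 of all genes tested (35.6%). Genes named below for their fold change, CPM difference or difference between the conditions were picked among those without overlap. Their separation is therefore part of the choice and not a result. Without 36 h replicate 2 there were 452 called genes, 357 higher and 95 lower, among them 77.3% of the 520. The called genes were 404 of 15393 protein-coding genes (2.62%) and 116 of 4210 others (2.76%).

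**Figure D1:**
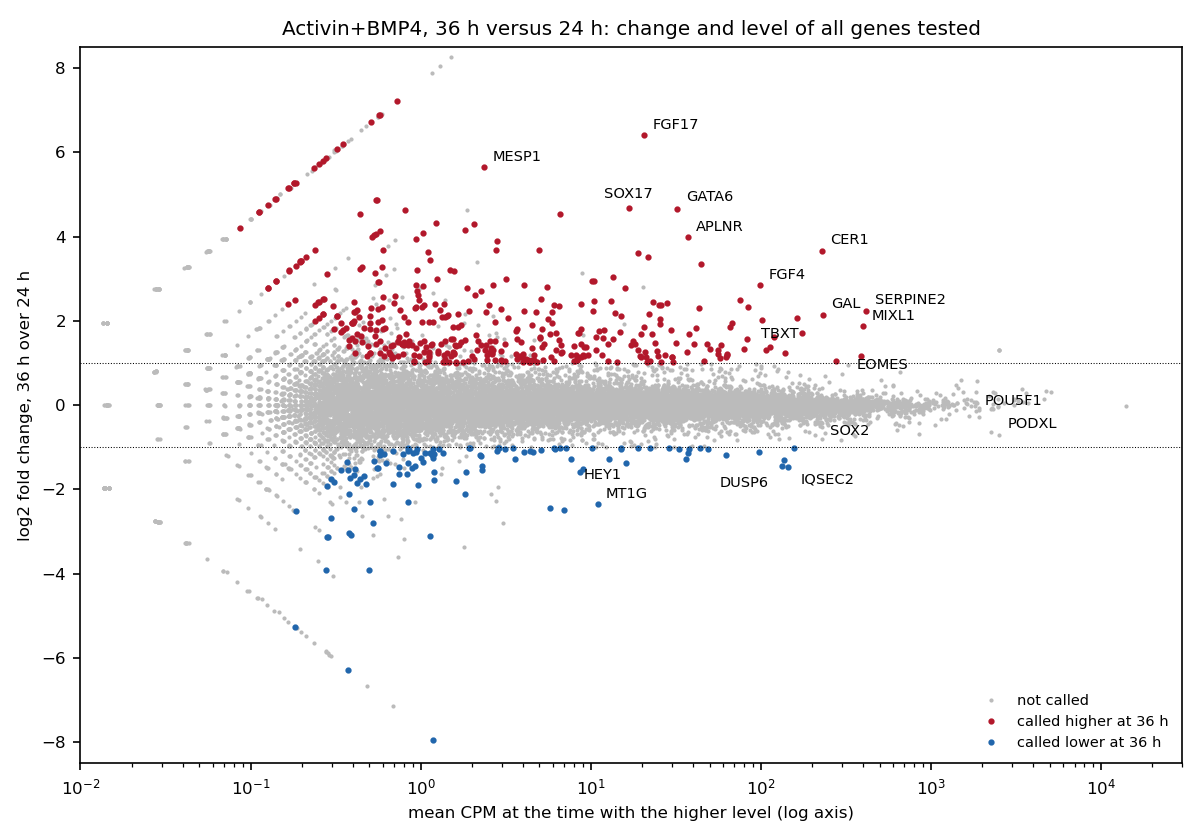
Log2 fold change of each gene tested, 36 h over 24 h with Activin and BMP4 (vertical axis), against its mean CPM at the time with the higher level (logarithmic horizontal axis). Red points are the 405 genes called higher and blue points the 115 called lower, dotted lines mark 2-fold, and 75 of the 19603 points lie outside the axes. FGF17, SOX17, GATA6 and APLNR have the highest fold changes of the genes named at 10 CPM or more.

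Most of the genes that rose had been barely detected. At 24 h, 241 of the 405 were under 1 CPM, and in untreated cells 266 were. At 36 h, 92 had reached 10 CPM or more, 165 lay between 1 and 10 CPM and 148 were still under 1 CPM. Among those of at least 10 CPM, 9 rose by 8-fold or more. The 115 that fell included 21 at 10 CPM or more at 24 h, and 0 of these fell by 8-fold or more. Across the whole course with Activin and BMP4, the mean of a gene that rose was highest at 36 h for 54 genes (13.3%, against 5.5% of all genes tested), at 48 h for 130 (32.1% against 8.98%), at 72 h for 82 (20.2% against 8.75%) and at 96 h for 129 (31.9% against 27.8%). The genes that fell had their highest mean in untreated cells in 11 cases, at 1 h in 20 (17.4%, against 13.5% of all genes tested), at 6 h in 15, at 12 h in 20 (17.4% against 7.71%), at 24 h in 32 (27.8% against 7.35%) and at 96 h in 12. Both distributions are tied to the choice of genes by these 2 times, and nothing is read from them.

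The primitive streak genes were the list with the most frequent calls, 11 of 17 higher and 0 lower, and a median log2 change of 1.39. Of all genes tested 2.07% were called higher and 0.587% lower, shares to be set beside each list count for Activin and BMP4 here and below. The lists were chosen with earlier results of these data known, so their order by calls is not an independent result. MIXL1 had 396, 399 and 407 CPM at 36 h, against 107, 107 and 114 CPM at 24 h. The libraries of the times did not overlap, and the 3.66-fold rise (log2 1.87 ± 0.06; edgeR quasi-likelihood adjusted p = 1.08e-25) was among the 6 largest gains in CPM by the naming rule. TBXT, the T-box factor brachyury, had 110.1, 113 and 115 CPM at 36 h, against 41.8, 42.3 and 45 CPM at 24 h, a 2.62-fold rise (log2 1.39 ± 0.09; edgeR quasi-likelihood adjusted p = 2.11e-15). Its 3 libraries at 36 h all lay above those at 24 h, and its mean at 36 h was the highest of its whole course, beside 112 ± 0.626 CPM at 48 h and 10.4 ± 2.89 CPM at 96 h. EOMES had 327, 317 and 331 CPM at 36 h, against 166, 165 and 175 CPM at 24 h; it too did not overlap, but at 1.93-fold (log2 0.95 ± 0.08) it fell short of the 2-fold limit and was not called. NODAL, the ligand of the pathway, was at 207 ± 5.72 CPM at 36 h and 148 ± 4.09 CPM at 24 h and was not called either (log2 0.48 ± 0.09), although its mean was likewise highest at 36 h of all times with Activin and BMP4.

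The other streak genes called were FGF17, FGF4, WNT3A, WNT8A, MESP1, MESP2, TBX6, EVX1 and CDX1. FGF17, a ligand of the FGF8 subfamily, showed the highest fold change of the genes named at 10 CPM or more. Its libraries held 19.2, 20.8 and 22 CPM at 36 h, against 0.205, 0.25 and 0.264 CPM at 24 h, with 84.6-fold between the times (log2 6.4 ± 0.23; edgeR quasi-likelihood adjusted p = 1.23e-24). FGF4, a ligand made by pluripotent cells and the early streak, was at 102, 97.7 and 99 CPM at 36 h, against 13.5, 14 and 14.2 CPM at 24 h, all libraries at 36 h being above all at 24 h (7.16-fold). EVX1, a homeobox factor of the posterior streak, was at 56.1 ± 1.4 CPM at 36 h and 22.6 ± 1.54 CPM at 24 h, and CDX1, a caudal homeobox factor, at 8.07 ± 0.591 CPM at 36 h and 3.93 ± 0.151 CPM at 24 h. The streak genes not called were EOMES, FGF8, FOXH1, SP5, NODAL and WNT3, with log2 changes between 0.45 and 0.95.

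MIXL1 and CER1 are shown with the 250 bases before their RefSeq gene start (GRCh38.p14), because both rose at high levels and FOXH1, a forkhead partner of SMAD2 and SMAD3, is a known regulator of NODAL and Activin targets. Capitals mark matches to AATNCACA on either strand, a motif that includes the recognition sequence of FOXH1 and is found in 2.89% of 35116 promoter windows of that length. FOXH1 itself was at 98.9 ± 7.48 CPM at 36 h and 57.8 ± 2.06 CPM at 24 h (log2 0.78 ± 0.06, not called). The MIXL1 window is chr1:226223414-226223663 (plus strand) and the CER1 window chr9:14722734-14722983 (minus strand).
MIXL1: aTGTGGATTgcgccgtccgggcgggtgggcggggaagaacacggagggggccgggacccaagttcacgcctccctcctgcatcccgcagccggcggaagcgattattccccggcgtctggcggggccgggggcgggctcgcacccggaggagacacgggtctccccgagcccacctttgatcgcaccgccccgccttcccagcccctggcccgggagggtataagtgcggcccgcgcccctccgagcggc
CER1: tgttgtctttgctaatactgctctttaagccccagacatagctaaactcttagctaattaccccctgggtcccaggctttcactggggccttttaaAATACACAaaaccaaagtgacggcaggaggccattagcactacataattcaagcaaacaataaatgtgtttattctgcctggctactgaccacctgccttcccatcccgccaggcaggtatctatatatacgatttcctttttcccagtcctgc
Each window held 1 match, at the far end of the MIXL1 window and near the middle of the CER1 window. These windows were also chosen because they hold a match: of the 12 genes with the highest fold rise 5 had a RefSeq window and 1 of these, CER1, held one, and of the 12 with the largest fold fall 7 had a window and 0 held one. A match of letters is not evidence of binding.

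Endoderm genes were among the leading ones that rose. Of 20 in the list 9 were called higher and 0 lower (median log2 1.02, or 0.99 with the members at 0 counts at 1 time set at their bound). SOX17, the transcription factor that marks definitive endoderm, had 19.1, 15.5 and 15.5 CPM at 36 h, against 0.699, 0.792 and 0.44 CPM at 24 h, a 25.6-fold rise (log2 4.68 ± 0.21; edgeR quasi-likelihood adjusted p = 3.15e-21). No library at 24 h came near those at 36 h. GATA6, a zinc finger factor of endoderm and cardiac mesoderm, had 30.9, 31.5 and 34.8 CPM at 36 h, against 1.11, 1 and 1.76 CPM at 24 h (25.2-fold), again without overlap. GATA4, its relative with a similar role, had 9.62, 11.7 and 10.0 CPM at 36 h, against 1.6, 1.38 and 1.01 CPM at 24 h (7.77-fold).

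CER1, which anterior endoderm secretes to block NODAL and BMP, had the highest difference in CPM of the list, with 226, 235 and 226 CPM at 36 h, against 16.8, 18.4 and 18.8 CPM at 24 h (12.7-fold; log2 3.67 ± 0.10; edgeR quasi-likelihood adjusted p = 4.85e-29). At 12 h its mean had been 39.3 ± 2.84 CPM, above the level at 24 h, and by 48 h it was 1494 ± 56.3 CPM. FOXA2, the pioneer factor of endoderm and of the organizer, was called higher but at 0.927 ± 0.097 CPM at 36 h and 0.18 ± 0.201 CPM at 24 h it was barely detected. LGR5, a receptor for R-spondins, PRDM1, a repressor needed in endoderm and germ cells, and FLRT3, a membrane protein of the FGF pathway, rose 6.13-fold, 5.76-fold and 4.67-fold. CXCR4 and HHEX, which are used to define later definitive endoderm, were not called: CXCR4 was at 0.914 ± 0.261 CPM at 36 h and 1.14 ± 0.109 CPM at 24 h and HHEX at 1.27 ± 0.281 CPM at 36 h and 1.08 ± 0.29 CPM at 24 h, and their means reached 155 ± 48.2 CPM and 34.3 ± 4.73 CPM at 96 h.

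**Figure D2:**
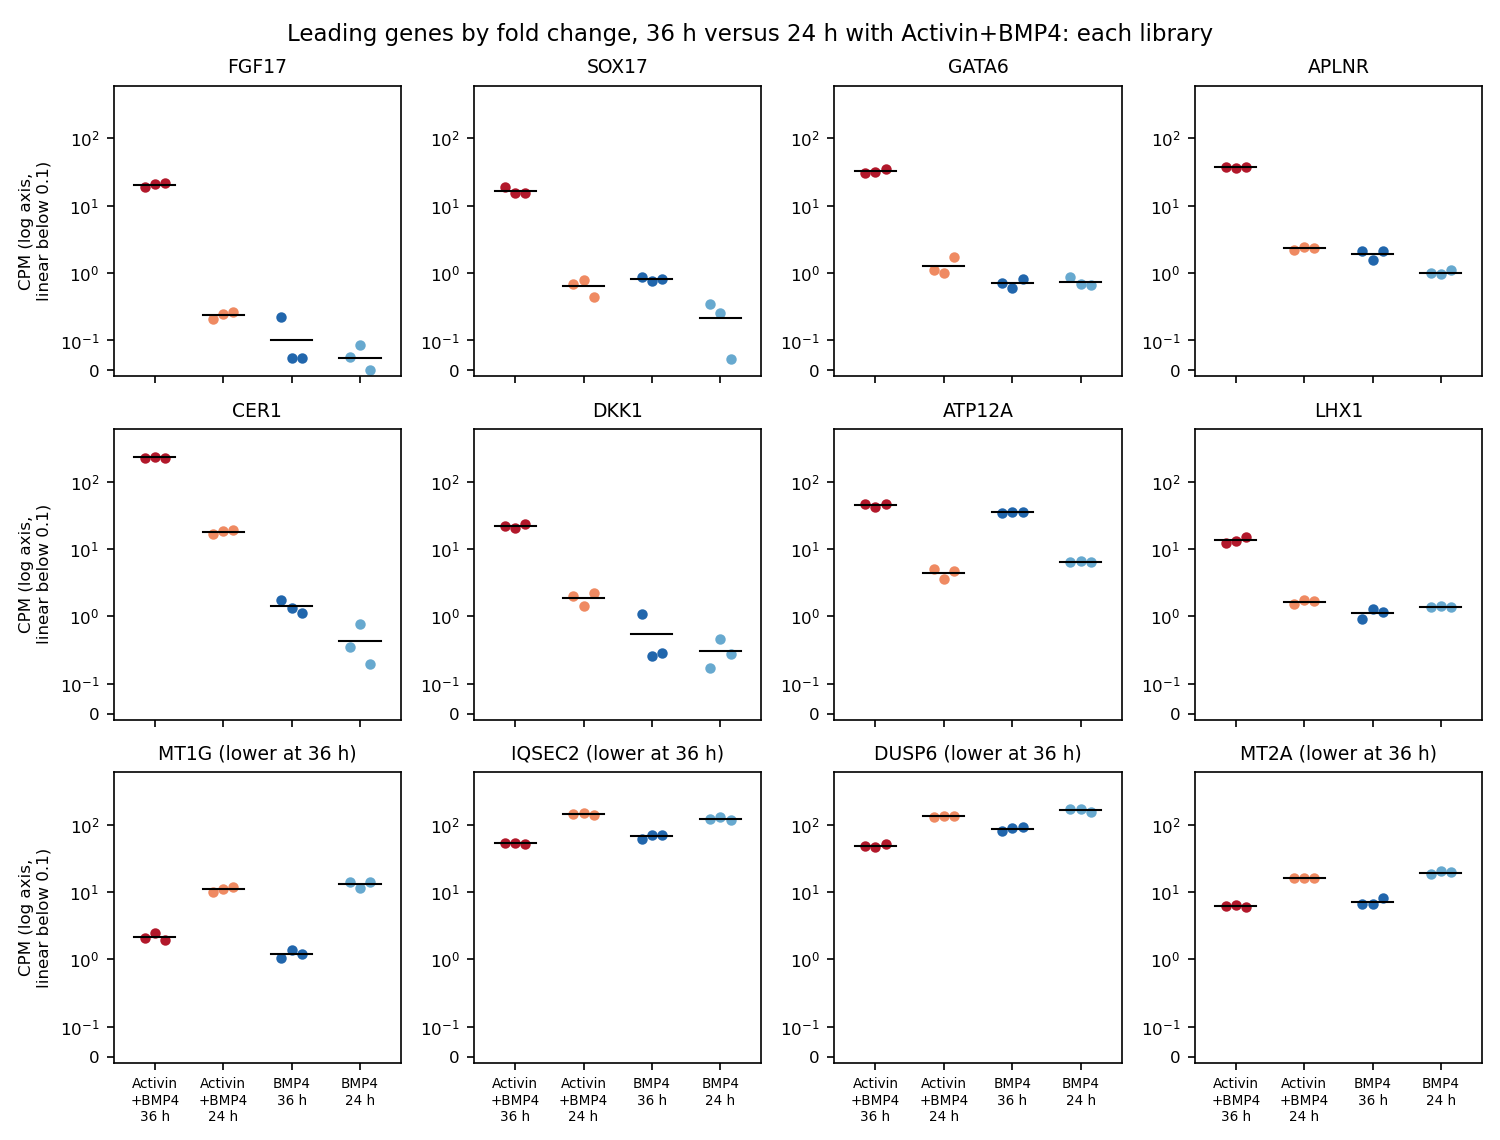
CPM of each library (points; logarithmic vertical axis, linear below 0.1) and group mean (bars) for 8 genes higher and 4 genes lower at 36 h, at 36 h and 24 h with Activin and BMP4 and at 36 h and 24 h with BMP4. In each panel the 3 libraries at 36 h with Activin and BMP4 are separate from the 3 at 24 h, as the naming rule required. With BMP4 the points of GATA6 at both times overlap.

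Genes of the anterior streak and organizer, the source of signals that pattern the head, were called higher in 6 of 15 cases and lower in 0 (median log2 0.54). Besides CER1 and FOXA2 these were DKK1, LHX1, GSC and CHRD. DKK1, a secreted inhibitor of WNT receptors, had 21.6, 20.1 and 23.2 CPM at 36 h, against 2.01, 1.42 and 2.2 CPM at 24 h (11.5-fold; log2 3.53 ± 0.24; edgeR quasi-likelihood adjusted p = 2.11e-15), and no library at 24 h reached a level seen at 36 h. LHX1, a LIM homeobox factor of the node, was at 12.3, 13 and 15.1 CPM at 36 h, against 1.52, 1.75 and 1.67 CPM at 24 h (8.18-fold), and GSC, the homeobox factor goosecoid, at 10.3, 9.93 and 10.7 CPM at 36 h, against 2.47, 2 and 2.07 CPM at 24 h (4.72-fold). Both were separate between the times. CHRD, the BMP antagonist chordin, was at 0.491 ± 0.0936 CPM at 36 h and 0.182 ± 0.0587 CPM at 24 h, and its call was lost without 36 h replicate 3 (edgeR quasi-likelihood adjusted p = 0.0506) or 24 h replicate 3 (adjusted p = 0.0699). OTX2, a homeobox factor of anterior epiblast, was at 61.3 ± 2.56 CPM at 36 h and 41.4 ± 0.926 CPM at 24 h and was not called.

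Mesoderm genes rose over the same hours. Among nascent and paraxial mesoderm genes 9 of 20 were called higher and 0 lower (median log2 0.91). MESP1, MESP2 and TBX6 among them were also counted with the streak genes. The lists share members, so their counts are not independent. Of these 20 genes 11 are also in other lists, as are 12 of 17 streak, 9 of 20 endoderm and 10 of 16 organizer genes. APLNR, the receptor for apelin on migrating mesoderm cells, had 37.2, 36.5 and 38 CPM at 36 h, against 2.22, 2.46 and 2.38 CPM at 24 h, tightly grouped at both times (15.8-fold; log2 3.98 ± 0.12; edgeR quasi-likelihood adjusted p = 1.24e-27). PDGFRA, a growth factor receptor of early mesoderm, had 13.3, 13.6 and 14.6 CPM at 36 h, against 2.79, 3.34 and 2.99 CPM at 24 h (4.54-fold), and ROR2, a receptor for WNT5A, had 43.8, 42.5 and 38.8 CPM at 36 h, against 11.4, 12.2 and 11.8 CPM at 24 h (3.54-fold). Neither showed overlap. MESP1, the first factor of cardiac mesoderm, was called higher and had 2.58, 2.25 and 2.27 CPM at 36 h, against 0.0411, 0.0417 and 0.044 CPM at 24 h. With 168 counts at 36 h and 3 counts at 24 h the ratio was 55.9, with a 95% interval of 18.8 to 274 for counting error. FOXC1, SNAI1, DLL3, TBX6 and MESP2 completed the list, at 36 h means between 0.705 CPM for MESP2 and 11.9 CPM for SNAI1, the repressor that drives cells out of epithelium.

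Lateral plate and cardiac genes were called higher in 6 of 19 cases and lower in 0 (median log2 0.72). HAND1, a helix-loop-helix factor of lateral plate and extraembryonic mesoderm, was at 5.2, 5.48 and 6 CPM at 36 h, against 1.07, 0.709 and 0.572 CPM at 24 h (7.03-fold), and TBX3, a T-box factor, at 19.6, 21.3 and 20.7 CPM at 36 h, against 5.47, 5.46 and 5.99 CPM at 24 h (3.65-fold). FOXF1, a forkhead factor of lateral plate, was at 0.943 ± 0.0483 CPM at 36 h and 0.0552 ± 0.0478 CPM at 24 h. HAND2 had 13 counts over the 36 h libraries and 0 over the 24 h libraries, at least 4.33-fold higher where 3 counts per group are taken as the floor. NKX2-5, a cardiac homeobox factor, was at 0.563 ± 0.114 CPM at 36 h and 0.0708 ± 0.0259 CPM at 24 h. MYL7, an atrial myosin light chain, was at 4.02 ± 0.507 CPM at 36 h and 1.98 ± 0.693 CPM at 24 h, only just past 2-fold, and its call was lost without 36 h replicate 1 or 2 or 24 h replicate 2 or 3 (log2 0.79 to 0.98). ISL1, a factor shared by cardiac mesoderm and amnion, was at 1.19 ± 0.29 CPM at 36 h and 1 ± 0.198 CPM at 24 h and was not called.

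The WNT list gave 10 calls higher and 0 lower of 28 (median log2 0.65). Among ligands, WNT5A was at 24.8, 25.3 and 26.1 CPM at 36 h, against 5.1, 5.38 and 4.18 CPM at 24 h (5.18-fold), WNT3A at 0.94 ± 0.181 CPM at 36 h and 0.182 ± 0.061 CPM at 24 h and WNT8A at 8.75 ± 0.507 CPM at 36 h and 3.18 ± 0.622 CPM at 24 h, whereas WNT3 at 65.6 ± 1.71 CPM at 36 h and 48.1 ± 1.18 CPM at 24 h was not called. Secreted inhibitors were called, DKK1 (above), DKK4 at 1.13 ± 0.189 CPM at 36 h and 0.101 ± 0.103 CPM at 24 h and NOTUM, an enzyme that inactivates WNT proteins, at 9.37 ± 0.712 CPM at 36 h and 3.57 ± 0.275 CPM at 24 h. RSPO3 and LGR5, a ligand and receptor that raise WNT receptor levels, were called at 36 h means of 0.594 and 2.10 CPM, as were APCDD1, a membrane inhibitor, and LEF1, the nuclear effector. The widely used targets AXIN2 and SP5 were not called, at log2 changes of 0.42 and 0.76.

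The NODAL and Activin list gave 2 calls higher and 1 lower of 24 (median log2 0.11), beside 2.07% higher and 0.587% lower of all genes tested. CER1 has been described, and CFC1, a NODAL co-receptor, had 39 counts at 36 h and 1 count at 24 h. INHBA, a subunit of Activin itself, fell to 0.579 ± 0.252 CPM at 36 h, against 1.19 ± 0.127 CPM at 24 h. Its call was lost without 36 h replicate 1 or 3 or 24 h replicate 3 (log2 between -0.95 and -0.81). LEFTY1 and LEFTY2 inhibit NODAL and are neighbouring paralogs whose reads can be hard to tell apart. LEFTY1 was at 28.7, 34.6 and 26.4 CPM at 36 h, against 27.7, 28.3 and 27.1 CPM at 24 h, with overlap, and LEFTY2 at 22.2, 27.4 and 21.6 CPM at 36 h, against 28.8, 29 and 28.4 CPM at 24 h, lower in all 3 libraries at 36 h. Neither was called. TDGF1, the co-receptor CRIPTO, was at 683 ± 11.1 CPM at 36 h and 708 ± 14.7 CPM at 24 h.

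In the BMP list 4 of 25 genes were called higher and 0 lower (median log2 0.01). The ligand BMP2 was at 23.2, 22.5 and 23.9 CPM at 36 h, against 3.95, 3.63 and 5.24 CPM at 24 h (5.45-fold), BMPER, a secreted modulator of BMP, at 4.06 ± 0.193 CPM at 36 h and 0.561 ± 0.194 CPM at 24 h, and MSX1, a homeobox target of BMP, at 4.78 ± 0.743 CPM at 36 h and 1.03 ± 0.189 CPM at 24 h, with CHRD as the fourth. The direct target ID1, at 251 ± 17.5 CPM at 36 h and 271 ± 8.97 CPM at 24 h, was not called (log2 -0.11 ± 0.08).

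In the FGF list 3 of 22 were called higher and 1 lower (median log2 -0.06). FGF17, FGF4 and FLRT3 rose, and DUSP6, a phosphatase that switches off ERK, fell to 47.9, 47.3 and 52.1 CPM at 36 h, against 131, 133 and 134 CPM at 24 h (log2 -1.44 ± 0.13; edgeR quasi-likelihood adjusted p = 8.07e-12), with no overlap. Other ERK feedback genes were not called; SPRY4 was at 147 ± 2.82 CPM at 36 h and 163 ± 3.46 CPM at 24 h and ETV4 at 107 ± 0.888 CPM at 36 h and 113 ± 3.44 CPM at 24 h. Notch gave 1 call in each direction of 17, DLL3 higher and HEY1 lower, beside 2.07% higher and 0.587% lower of all genes tested. The retinoid list gave 2 of 16 higher, CYP26A1, an enzyme that degrades retinoic acid, at 21.2 ± 2.33 CPM at 36 h and 9.55 ± 0.635 CPM at 24 h, and RXRG, a nuclear receptor, with 38 counts at 36 h and 2 counts at 24 h.

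Genes of cell movement rose in part. Of 32 chemotaxis and guidance genes 8 were called higher and 0 lower (median log2 0.31). Along with APLNR and PDGFRA these were EPHB3 and EPHA4, receptors for ephrins, PLXNA2 and NRP1, receptors for semaphorins, KITLG, the ligand of KIT, and ACKR3, a scavenger of chemokines. PLXNA2 had 26.5, 24.8 and 26.6 CPM at 36 h, against 5.79, 4.5 and 4.58 CPM at 24 h (5.22-fold) and KITLG had 76.1, 73.8 and 90.3 CPM at 36 h, against 33.1, 30.2 and 31.2 CPM at 24 h (2.54-fold), both without overlap. Of 21 genes of epithelial to mesenchymal transition 4 were called higher and 0 lower (median log2 0.35): TNC, ITGA5, SNAI1 and TWIST2. TNC, a matrix protein, was at 27.3, 29.1 and 28.4 CPM at 36 h, against 5.79, 4.25 and 5.77 CPM at 24 h. TWIST2 was at 0.691 ± 0.0825 CPM at 36 h and 0.252 ± 0.105 CPM at 24 h and was no longer called without 36 h replicate 1 or 2 or 24 h replicate 2 or 3 (largest edgeR quasi-likelihood adjusted p = 0.109). Neither of the cadherins exchanged in that transition was called. CDH1, the epithelial cadherin, was at 509 ± 4.71 CPM at 36 h and 523 ± 12.3 CPM at 24 h, and CDH2, the neural cadherin, at 206 ± 6.03 CPM at 36 h and 154 ± 5.45 CPM at 24 h. None of 26 epithelial junction genes was called in this comparison by edgeR, which at 2.65% of all genes called is near the background.

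**Figure D3:**
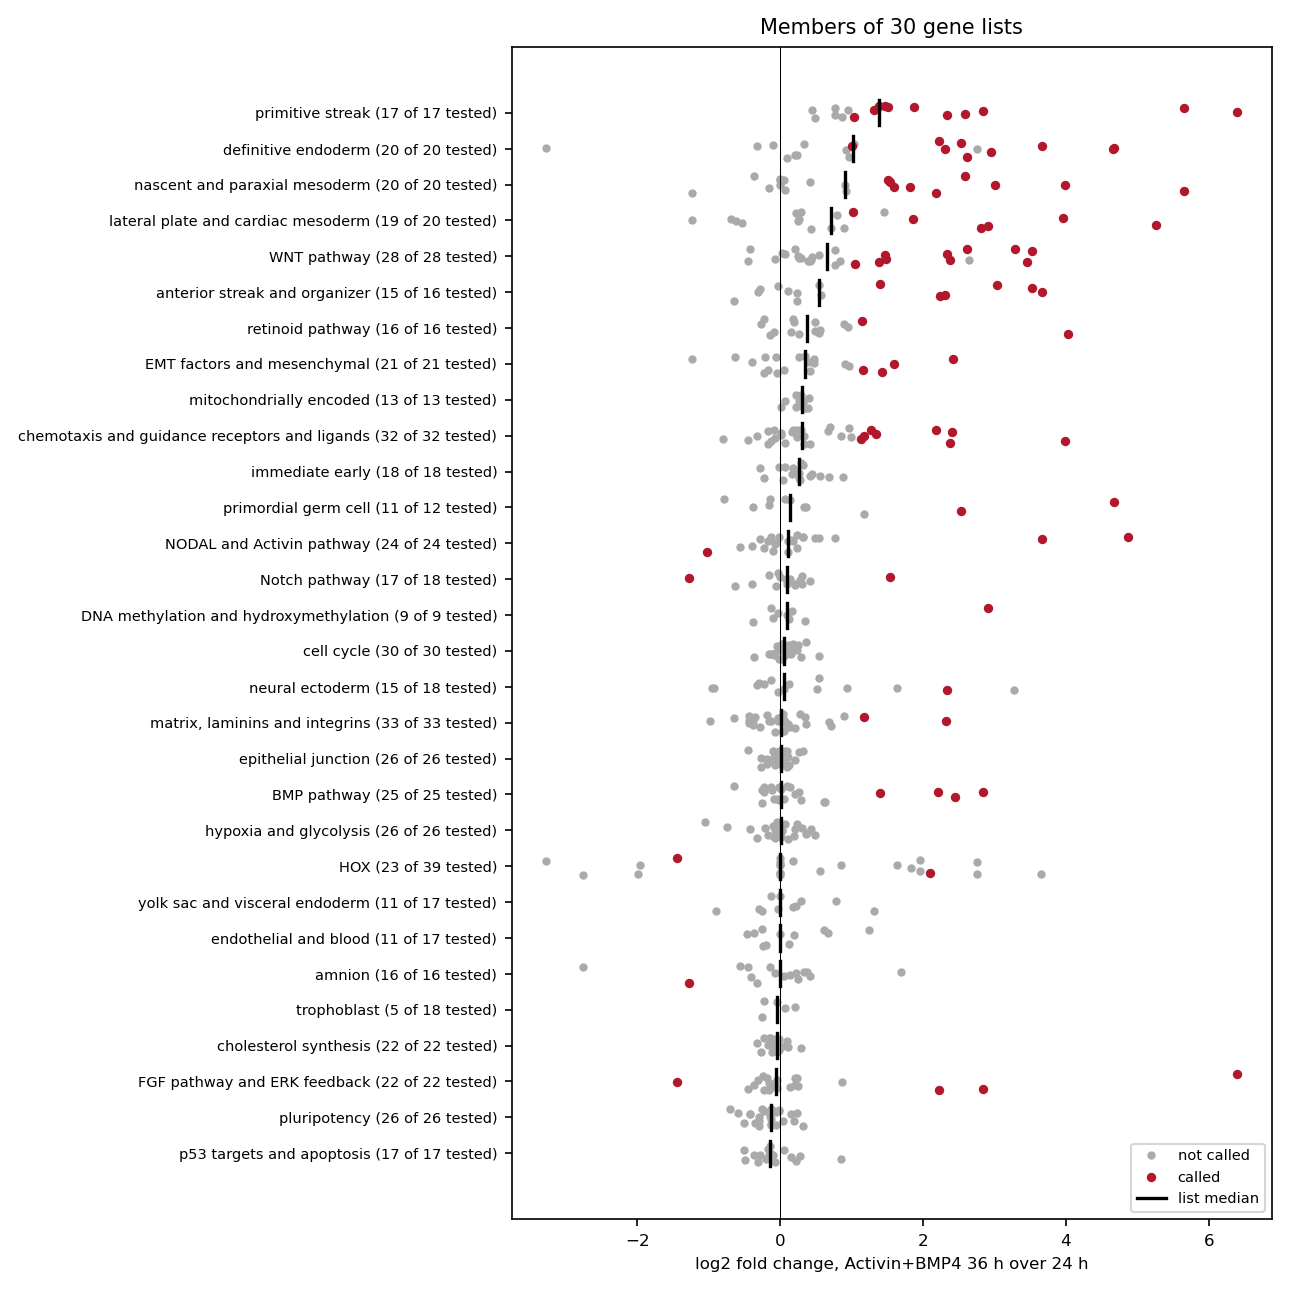
Log2 fold change (36 h over 24 h with Activin and BMP4) of each tested member of 30 gene lists (points), in order of list median (vertical bars), with called members in red. Primitive streak, definitive endoderm and mesoderm lists have medians between 0.72 and 1.39, and pluripotency genes lie between -0.70 and 0.31 with 0 called.

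Among called genes, those with the highest gain in CPM were SERPINE2, MIXL1, COL6A1, CER1, GAL and IFITM1. SERPINE2, a secreted inhibitor of serine proteases, had 407, 408 and 436 CPM at 36 h, against 85.3, 88.8 and 90.6 CPM at 24 h (4.73-fold). GAL, the neuropeptide galanin, had 236, 241 and 219 CPM at 36 h, against 51.1, 52.3 and 53.7 CPM at 24 h (4.44-fold), and COL6A1, a collagen VI chain, 386, 395 and 379 CPM at 36 h, against 169, 180.3 and 164 CPM at 24 h (2.26-fold). IFITM1, a membrane protein also seen in early mesoderm of mice, had 274, 287 and 266 CPM at 36 h, against 135, 127 and 137 CPM at 24 h (2.07-fold). None of these genes showed overlap between the times, which the naming rule required. COL6A1 and COL5A1 were the 2 members called of 33 matrix genes (median log2 0.02), beside 2.07% of all genes tested called higher. COL5A1 was at 84.3 ± 4.67 CPM at 36 h and 16.9 ± 0.388 CPM at 24 h. ATP12A, a proton pump subunit, had 45.7, 42.1 and 46.3 CPM at 36 h, against 4.97, 3.54 and 4.66 CPM at 24 h (10.2-fold), and SLITRK2, a membrane protein of neurons, 9.58, 10.5 and 10.6 CPM at 36 h, against 1.44, 1.33 and 1.19 CPM at 24 h (7.71-fold). PPIAP46, named as a pseudogene of cyclophilin A, was at 19 ± 0.647 CPM at 36 h and 1.56 ± 0.157 CPM at 24 h; reads of its parent gene or of other copies may be counted there, so this value is uncertain.

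Pluripotency genes were not called in either direction, 0 of 26, with a median log2 change of -0.13. At 2.65% of all genes called, that count is near the background for a list of this size. POU5F1 was at 1678 ± 22.1 CPM at 36 h and 1845 ± 16.6 CPM at 24 h (log2 -0.14 ± 0.05) and NANOG at 254 ± 4.06 CPM at 36 h and 279 ± 11.9 CPM at 24 h (log2 -0.13 ± 0.04). SOX2, the partner of POU5F1 in pluripotent cells, had 159.8, 159 and 166 CPM at 36 h, against 237, 225 and 227 CPM at 24 h (log2 -0.51 ± 0.08), without overlap but within 2-fold. The lowest value of the list was that of PODXL, a surface sialomucin, at 1561 ± 15 CPM at 36 h and 2529 ± 36.4 CPM at 24 h (log2 -0.7 ± 0.04). Cell cycle, p53, cholesterol synthesis, hypoxia and glycolysis, and immediate early genes also gave 0 calls, of 30, 17, 22, 26 and 18 members tested, which at 2.65% of all genes called is near the background for lists of this size.

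Genes of other fates gave 0 to 2 calls per list, to be set against the 2.65% of all genes tested that were called. Of 16 amnion genes 0 were called higher and 1 lower (median log2 -0.01, or 0.03 with the member at 0 counts at 36 h set at its bound). This was HEY1, a Notch target. TFAP2A, a factor of amnion and surface ectoderm, was at 20.5 ± 1.2 CPM at 36 h and 18.7 ± 1.78 CPM at 24 h, and CLDN10, an amnion claudin, at 22.1 ± 2.03 CPM at 36 h and 30.04 ± 1.15 CPM at 24 h. Yolk sac (11 tested of 17), trophoblast (5 of 18) and endothelial and blood genes (11 of 17) gave 0 calls. Among 11 primordial germ cell genes SOX17 and PRDM1, which are also in the endoderm list, were the 2 called. Among 23 HOX genes tested of 39, HOXB9 was called higher at 0.804 ± 0.109 CPM at 36 h and 0.184 ± 0.129 CPM at 24 h. HOXD1 was called lower at 0.838 ± 0.246 CPM at 36 h and 2.29 ± 0.603 CPM at 24 h, a call lost without 36 h replicate 2 (edgeR quasi-likelihood adjusted p = 0.0556) or 24 h replicate 1 (adjusted p = 0.0602). SIX3, the 1 neural gene called of 15, was at 0.591 ± 0.0492 CPM at 36 h and 0.115 ± 0.0935 CPM at 24 h and was lost without 24 h replicate 1 or 2 (largest adjusted p 0.0706 by edgeR), and DNMT3L, the 1 called of 9 DNA methylation genes, was at 0.567 ± 0.176 CPM at 36 h and 0.0716 ± 0.0523 CPM at 24 h.

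Of the genes called lower and at 10 CPM or more at either time, MT1G led by fold change and IQSEC2, DUSP6, ITPR2 and DACT1 by CPM lost. Genes that fell by less than 2-fold and were not called, such as PODXL (above), lost more CPM. IQSEC2, an activator of ARF GTPases, had 53, 53.6 and 51.8 CPM at 36 h, against 145, 149 and 140.3 CPM at 24 h (log2 -1.46 ± 0.06; edgeR quasi-likelihood adjusted p = 1.32e-21). ITPR2, a calcium channel of the endoplasmic reticulum, had 54.5, 52.7 and 59.4 CPM at 36 h, against 134, 131 and 149 CPM at 24 h (log2 -1.31 ± 0.08), and DACT1, a modulator of WNT signalling, 77.4, 76 and 78.9 CPM at 36 h, against 162, 157 and 153 CPM at 24 h (log2 -1.03 ± 0.06). All were separate between the times, as the naming rule required. The means of IQSEC2 had reached 198 ± 7.03 CPM at 12 h, and DACT1 had 76.8 ± 4.03 CPM then. HEY1, GNA14, a G protein subunit, ABCA1, a cholesterol exporter, PDE4B, a cyclic AMP phosphodiesterase, LRAT, which esterifies retinol, and CDH6, a cadherin, were between 2.05-fold and 2.41-fold lower. SCARA3, a scavenger receptor, was at 16.1 ± 1.82 CPM at 36 h and 33.1 ± 0.41 CPM at 24 h and fell just short of 2-fold without 36 h replicate 3 (log2 -0.97).

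Metallothioneins, small proteins that bind zinc and copper, were looked at as a family after MT1G and MT2A had been seen among the genes that fell. MT1G had 2.06, 2.46 and 1.95 CPM at 36 h, against 10.2, 11 and 11.8 CPM at 24 h (log2 -2.35 ± 0.17; edgeR quasi-likelihood adjusted p = 8.77e-15), and MT2A had 6.31, 6.35 and 6 CPM at 36 h, against 16.3, 15.9 and 16.4 CPM at 24 h (log2 -1.38 ± 0.10). Neither overlapped. MT1E, MT1F, MT1H and MT1M were called lower as well, at -2.45, -1.09, -2.48 and -1.6 on the log2 scale. MT1X was the 1 tested member not called, at 12.1 ± 1.88 CPM at 36 h and 10.9 ± 1.25 CPM at 24 h. Earlier in the course the mean of MT1G had been 0.788 ± 0.164 CPM in untreated cells and 39.5 ± 1.95 CPM at 6 h. That of MT2A had been 6.86 ± 0.36 CPM in untreated cells and 22.4 ± 1.62 CPM at 6 h. At 12 h the means of MT1G and MT1X had been 23.3 ± 3.75 CPM and 33.1 ± 2.89 CPM. These genes are near-identical copies, and reads may have been divided or assigned between them in ways that are not stated, so single members are uncertain. MTF1, the factor that senses metal, was at 25.7 ± 1.95 CPM at 36 h and 25.6 ± 1.18 CPM at 24 h, and SLC30A1, a zinc exporter under its control, at 61.6 ± 9.27 CPM at 36 h and 85.1 ± 2.39 CPM at 24 h; neither was called.

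MT2A is shown with the 250 bases before its RefSeq start (GRCh38.p14, chr16:56608334-56608583, plus strand). Capitals mark matches on either strand to TGCNCNC, a loose motif that includes the core of the metal response element that MTF1 reads.
MT2A: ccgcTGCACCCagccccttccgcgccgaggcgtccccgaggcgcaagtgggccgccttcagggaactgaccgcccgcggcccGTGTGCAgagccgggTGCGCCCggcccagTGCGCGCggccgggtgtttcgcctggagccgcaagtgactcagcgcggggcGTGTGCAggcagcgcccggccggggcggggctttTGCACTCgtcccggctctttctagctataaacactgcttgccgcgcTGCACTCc
The window held 7 matches. At least 1 match occurs in 49.1% of 35116 windows of this length, and 7 or more in 30 of them (0.0854%). This window was chosen after the fall of MT2A had been seen. Of the 12 genes with the largest fold fall 7 had a window, and 4 of these held a match. Of the 12 with the highest fold rise 5 had a window, and 2 of these held one. A match of letters is not evidence of binding, and a part of MTF1 in the fall was not tested.

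**Figure D4:**
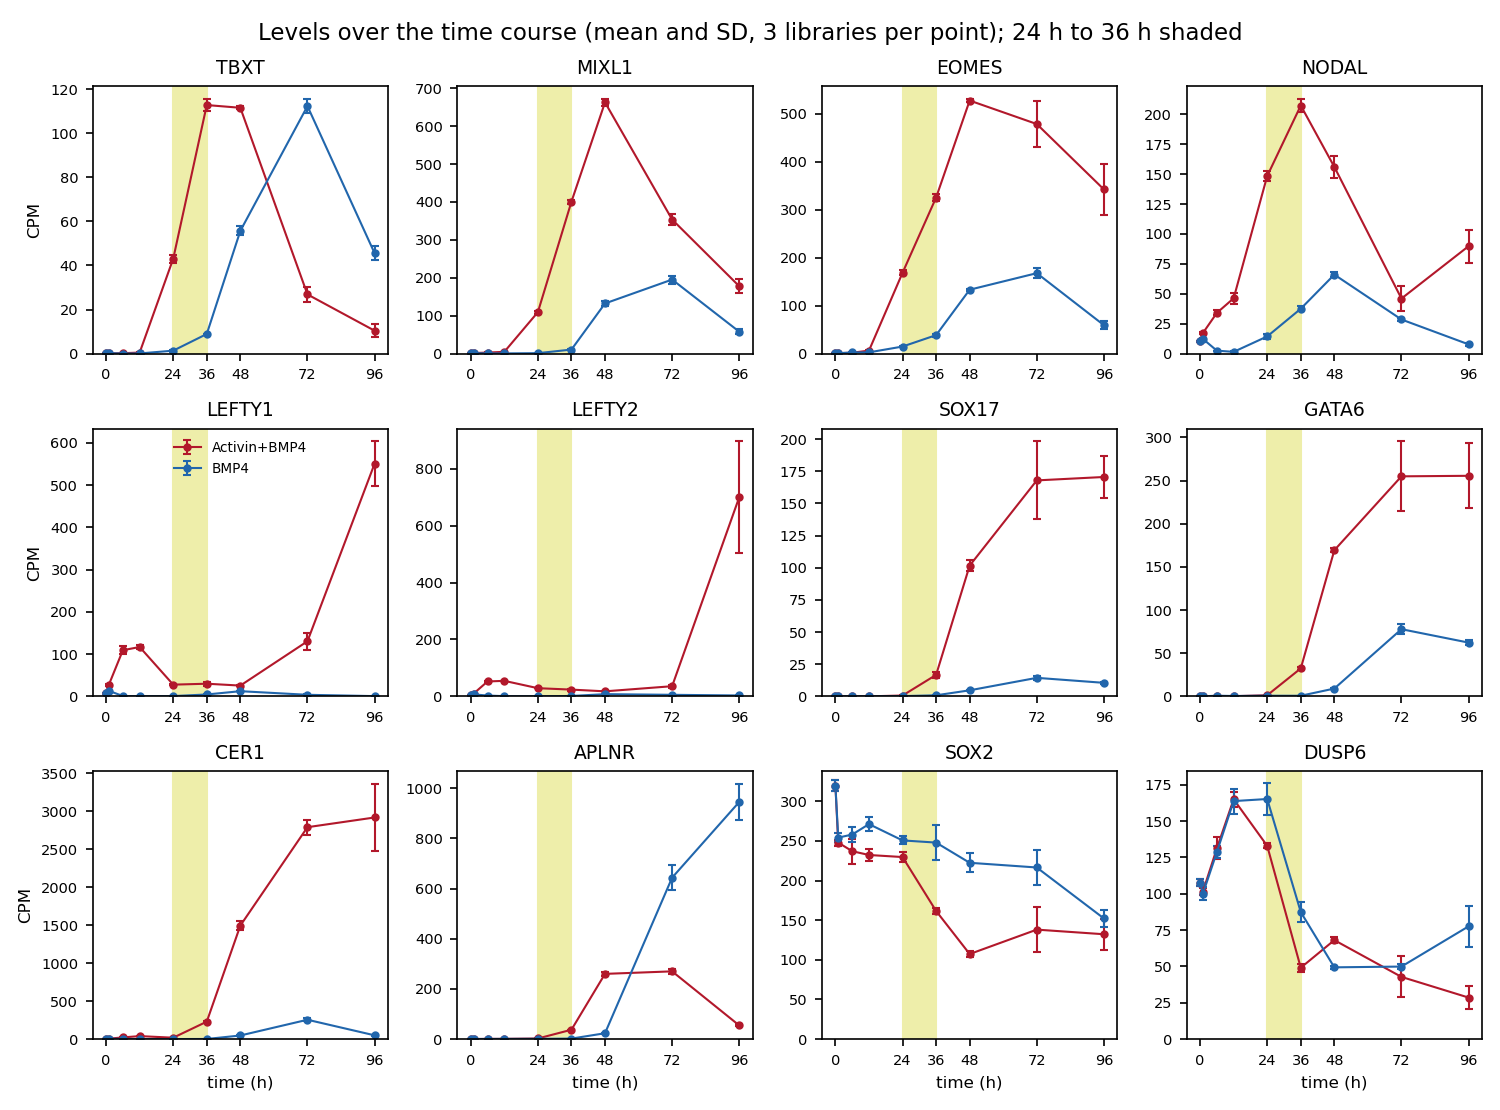
Mean CPM with SD (3 libraries per point) of 12 genes over time in hours, with Activin and BMP4 (red) and with BMP4 alone (blue), the interval between 24 h and 36 h being shaded. With Activin and BMP4 the means of TBXT and NODAL are highest at 36 h, SOX17, GATA6, CER1 and APLNR leave their low levels within the shaded interval, and SOX2 and DUSP6 have lower means at 36 h than at 24 h.

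The same interval was then compared with BMP4 alone. There 228 genes were called (1.16% of 19603), 195 higher (0.995%) and 33 lower (0.168%). The comparisons share no library. Both called 54 genes higher, which is 13.3% of the 405 with Activin and BMP4 and 27.7% of the 195 with BMP4, and both called 9 lower, which is 7.83% of the 115 and 27.3% of the 33. No gene called in one was called in the opposite direction in the other. The change itself differed between the conditions for 260 genes (1.33%; 1735, or 8.85%, with no limit on size), 155 more positive (0.791%) and 105 more negative (0.536%) with Activin and BMP4, and these held 117 of the 405 and 21 of the 115. The difference between the conditions includes the same libraries and the same change that picked the 405 and the 115. Their numbers among the 260 are therefore tied to that choice and are not independent evidence. Without 36 h replicate 2 of Activin and BMP4 the change differed for 212 genes. The conditions differ in Activin and in the dose of BMP4 together, and these cannot be told apart.

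**Figure D5:**
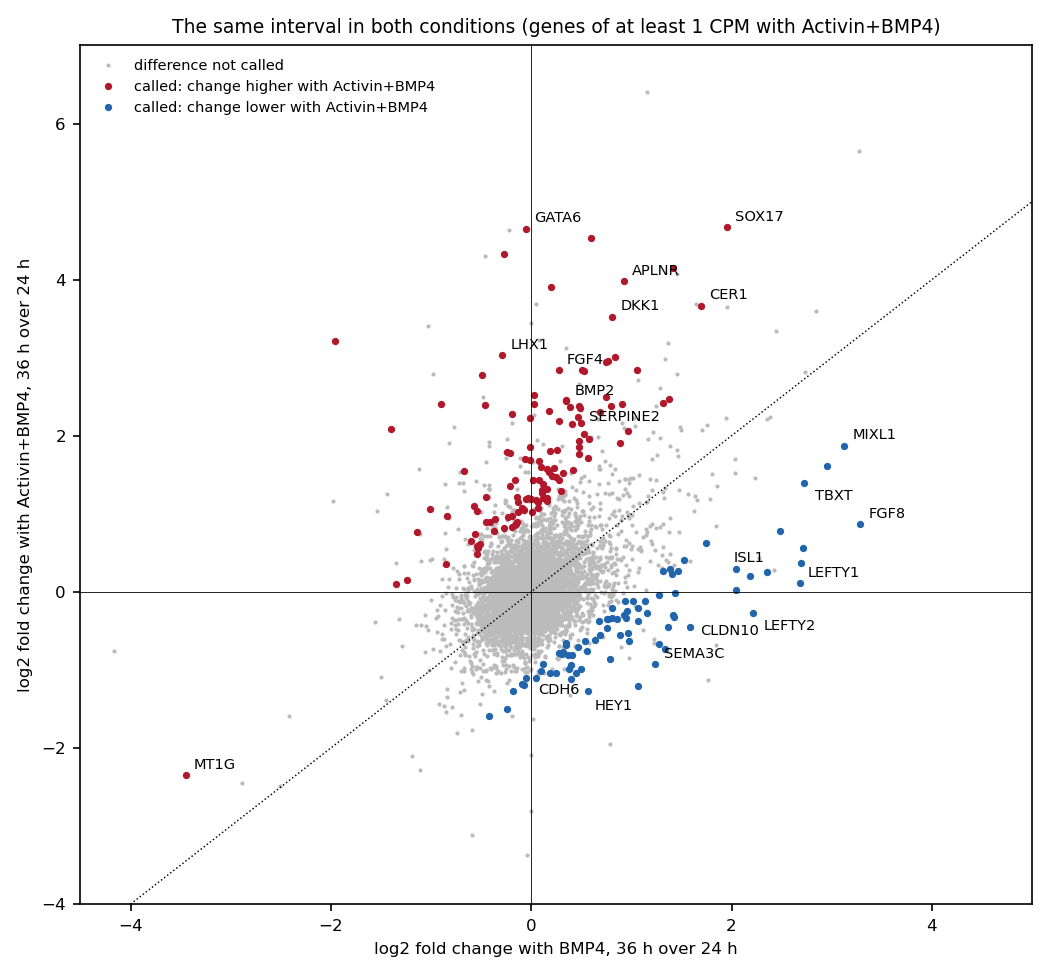
Log2 fold change of 36 h over 24 h with Activin and BMP4 (vertical axis) against that with BMP4 alone (horizontal axis) for 14875 genes of at least 1 CPM at either time with Activin and BMP4, 6 of them outside the axes. Red and blue points are genes whose change was called different by edgeR, more positive or more negative with Activin and BMP4, and the dotted line marks equal change. GATA6, LHX1 and APLNR lie far above the line, and LEFTY2 and FGF8 far below it.

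Several genes of endoderm, mesoderm and the node had a larger change with the combined treatment than with BMP4. GATA6 with BMP4 had 0.703, 0.597 and 0.806 CPM at 36 h, against 0.862, 0.678 and 0.664 CPM at 24 h, with overlap, and its change differed by log2 4.71 ± 0.50 between the conditions (edgeR quasi-likelihood adjusted p = 3.31e-09). LHX1 with BMP4 had 0.923, 1.28 and 1.17 CPM at 36 h, against 1.38, 1.4 and 1.37 CPM at 24 h (difference in change log2 3.32 ± 0.43; edgeR quasi-likelihood adjusted p = 2.97e-07). APLNR with BMP4 had 2.15, 1.58 and 2.1 CPM at 36 h, against 0.992, 0.974 and 1.09 CPM at 24 h, and FGF4 had 3.87, 3.63 and 3.55 CPM at 36 h, against 3.15, 2.92 and 3.05 CPM at 24 h; their differences were log2 3.06 and 2.57. SOX17 was at 0.818 ± 0.0564 CPM at 36 h and 0.213 ± 0.157 CPM at 24 h with BMP4 (difference 2.72), but that call was lost without BMP4 24 h replicate 1 or 2 (edgeR quasi-likelihood adjusted p = 0.203 and 0.0927). DKK1 was at 0.546 ± 0.479 CPM at 36 h and 0.304 ± 0.149 CPM at 24 h with BMP4 (difference 2.72), lost without BMP4 24 h replicate 2 (adjusted p = 0.129 by edgeR). Of all genes tested 2.07% were called higher with Activin and BMP4, 0.995% were called higher with BMP4, and 0.791% had a change called more positive with the combined treatment. In the endoderm list 9 of 20 were called higher with Activin and BMP4 and 3 of 20 with BMP4, and 5 had a change called more positive with the combined treatment. In the nascent mesoderm list the counts were 9 and 1 of 20, and 8 changes were called more positive. Of these calls, those of CER1 and GATA4 in the endoderm list and of TBX6 and FOXC1 in the mesoderm list were also lost when a single library was left out (largest edgeR quasi-likelihood adjusted p = 0.247, 0.109, 0.161 and 0.43).

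Streak genes rose in both conditions, at different levels. MIXL1 with BMP4 had 10.5, 10.0 and 11.6 CPM at 36 h, against 1.03, 1.82 and 0.86 CPM at 24 h and TBXT had 9.1, 8.79 and 8.83 CPM at 36 h, against 1.25, 1.86 and 0.938 CPM at 24 h, and both changes were larger in fold with BMP4 (difference in change log2 -1.25 and -1.34; edgeR quasi-likelihood adjusted p = 5.95e-06 and 9.57e-05). With BMP4 the mean of TBXT was highest at 72 h, at 112 ± 3.34 CPM. In the streak list 11 of 17 were called higher with Activin and BMP4 and 10 of 17 with BMP4, and the change was called different for 3 in each direction. Over all genes tested the shares were 2.07% and 0.995% called higher, and 0.791% and 0.536% with a change called more positive and more negative. ATP12A rose in both, with 34.1, 35.6 and 35.5 CPM at 36 h, against 6.34, 6.56 and 6.49 CPM at 24 h with BMP4, and HAND1 did so at 50.8 ± 4.14 CPM at 36 h and 7.62 ± 0.177 CPM at 24 h.

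A further set was called higher with BMP4 and not with Activin and BMP4. EOMES and NODAL belong to it (both log2 1.39 with BMP4), though their difference in change was not called. With Activin and BMP4, EOMES, NODAL and FGF8 rose as well, by log2 0.95, 0.48 and 0.87. Part of the set therefore rests on the 2-fold limit. LEFTY1 with BMP4 was at 4.45 ± 0.744 CPM at 36 h and 0.686 ± 0.231 CPM at 24 h and LEFTY2 at 1.38 ± 0.371 CPM at 36 h and 0.289 ± 0.0649 CPM at 24 h (difference in change log2 -2.57 and -2.49). FGF8, a streak ligand, was at 15.6 ± 0.9 CPM at 36 h and 8.58 ± 0.473 CPM at 24 h with Activin and BMP4 and at 1.25 ± 0.328 CPM at 36 h and 0.122 ± 0.0634 CPM at 24 h with BMP4 (difference -2.42; edgeR quasi-likelihood adjusted p = 1.89e-05). CLDN10 with BMP4 had 381, 427 and 449 CPM at 36 h, against 142, 138 and 139.7 CPM at 24 h (difference -2.03), and SEMA3C, a secreted semaphorin, had 20.7, 22.1 and 23.7 CPM at 36 h, against 10.0, 9.32 and 8.87 CPM at 24 h (difference -2.17). With Activin and BMP4 SEMA3C was at 10.4 ± 0.718 CPM at 36 h and 19.9 ± 0.789 CPM at 24 h. HEY1, called lower with Activin and BMP4, was at 6.66 ± 0.444 CPM at 36 h and 4.49 ± 0.295 CPM at 24 h with BMP4. It was within 2-fold and not called with BMP4, so it is not part of this set. Of all genes tested 2.07% were called higher with Activin and BMP4, 0.995% with BMP4, and 0.536% had a change called more negative with the combined treatment. In the amnion list 0 of 16 were called higher with Activin and BMP4 and 5 with BMP4, and the change was called more negative with the combined treatment for 5. ISL1 was one of them, at 9.68 ± 0.736 CPM at 36 h and 1.89 ± 0.27 CPM at 24 h with BMP4.

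The metallothioneins that fell with Activin and BMP4 fell with BMP4 too. MT1G with BMP4 had 1.05, 1.37 and 1.21 CPM at 36 h, against 14, 11.5 and 14.3 CPM at 24 h, a steeper fall (difference in change log2 1.1; edgeR quasi-likelihood adjusted p = 0.00498), and MT2A had 6.59, 6.66 and 8.18 CPM at 36 h, against 18.3, 20.5 and 19.6 CPM at 24 h. MT1X was called lower with BMP4 alone, at 4.04 ± 0.495 CPM at 36 h and 9.58 ± 0.999 CPM at 24 h, and its change differed between the conditions by log2 1.39. IQSEC2 with BMP4 was at 67.7 ± 6.06 CPM at 36 h and 123 ± 6.64 CPM at 24 h, and DUSP6 at 87.4 ± 6.87 CPM at 36 h and 165 ± 11.2 CPM at 24 h. Both were within 2-fold there and were not called.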

How the data were processed

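Counts per gene were deposited by the authors as 1 table of whole numbers, 58051 genes in 51 libraries. The submitters' processing notes name cutadapt 1.5, STAR 2.5.2a, RSEM 1.3.0 and GRCh38. Whether these are read counts or rounded RSEM estimates, the strand setting and the annotation release are not given in the sources used here. Symbols were matched for 98.1% of genes, and 0 columns lacked a sample.

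edgeR 4.0.16 in R 4.3.3 kept 19603 genes (filterByExpr, minimum count 10, minimum total 15), scaled libraries by TMM factors (0.966 to 1.03) and fitted 1 mean per group over the 51 libraries. The quasi-likelihood F test was applied to each contrast and had been tested on simulated data. The difference between conditions is the interaction contrast.

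Named genes are the 12 highest and 12 lowest fold changes and 6 highest and 6 lowest CPM differences among called genes of at least 10 CPM without overlap, 6 and 6 for the interaction, a panel of 30 genes and up to 6 members of each of 30 lists (583 genes, 536 tested, 51 in several lists). 1 gene of this rule is not reported here. Members and lists were chosen with earlier results of these data known. Promoters came from RefSeq (GRCh38.p14), which matched 5 of the 12 and 7 of the 12 genes of highest and lowest fold. Alternatives included other scaling, filters, DESeq2 1.42.0 and each library left out.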

Additional observations from a re-analysis of the deposited data

Results flagged for a closer look

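For 44 of the 193 named genes the change between 24 h and 36 h differed between the conditions, by the interaction contrast of edgeR's quasi-likelihood test (adjusted p below 0.05 and 2-fold or more), 30 more positive and 14 more negative with Activin and BMP4. The values below are these differences in log2 change, Activin and BMP4 minus BMP4. Of all genes tested 1.33% had such a difference. Some of the named genes were picked by this same contrast, and others by their change with Activin and BMP4. The share among named genes is therefore partly fixed by that choice and is not a result.

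Among transcription factors the difference was 4.71 for GATA6, 4.47 for MESP2, 3.32 for LHX1, 3.12 for NKX2-5, 2.72 for SOX17, 2.5 for PRDM1, 2.19 for GATA4, 2.17 for FOXC1, 1.5 for SNAI1 and 1.19 for TBX6. The levels of MESP2 were 0.705 ± 0.29 CPM at 36 h and 0.111 ± 0.0614 CPM at 24 h with Activin and BMP4, and 0.0558 ± 0.0216 CPM at 36 h and 0.218 ± 0.0918 CPM at 24 h with BMP4. Among secreted factors it was 2.72 for DKK1, 2.57 for FGF4, 2.1 for BMP2, 1.99 for WNT5A, 1.98 for CER1, 1.79 for BMPER, 1.77 for SERPINE2 and 1.74 for GAL. Among receptors, ligands on the cell surface and co-receptors it was 4.74 for CFC1, 3.06 for APLNR, 2.22 for DLL3, 2.2 for SLITRK2, 1.91 for PLXNA2, 1.9 for PDGFRA, 1.56 for ROR2, 1.49 for EPHB3 and 1.08 for ITGA5, and for matrix genes 2.14 for COL5A1 and 1.11 for TNC. MT1G, which fell in both conditions, had a difference of 1.1.

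More negative with Activin and BMP4 were LEFTY1 (-2.57), LEFTY2 (-2.49), FGF8 (-2.42), SEMA3C (-2.17), ISL1 (-2.1), CLDN10 (-2.03), HOXA13 (-1.98) and HEY1 (-1.84). CDH6 (-1.48), TBXT (-1.34), SCARA3 (-1.28), MIXL1 (-1.25), LRAT (-1.15) and ABCA1 (-1.08) were too. Low counts stand behind several of these, such as CFC1 with 1 count over the 24 h libraries of Activin and BMP4.

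Leaving out a single library ended 9 of these calls. CER1 was at 1.31 without BMP4 24 h replicate 2 (edgeR adjusted p = 0.247), DKK1 at 2.30 without the same library, and GATA4 at 1.98 without it and 2.16 without BMP4 24 h replicate 3. SOX17 was at 2.20 without BMP4 24 h replicate 1 and at 2.56 without replicate 2. NKX2-5 was at 2.85 without Activin and BMP4 24 h replicate 1, and TNC at 0.98 without Activin and BMP4 24 h replicate 2 and 1.01 without BMP4 24 h replicate 2. FOXC1, HOXA13 and TBX6 lost their calls under 7, 10 and 11 of the alternatives, left-out libraries for the most part, with edgeR adjusted p up to 0.43, 0.155 and 0.161. HOXA13 (-1.90) and TBX6 (1.15) were among the calls lost without Activin and BMP4 36 h replicate 2 (edgeR adjusted p = 0.0933 and 0.104).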

How the results depend on the processing

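With each of the 6 libraries left out, the comparison of 36 h with 24 h under Activin and BMP4 called 452 to 523 genes (357 to 410 higher and 95 to 113 lower), against 520 with all. BMP4 gave 192 to 222 (164 to 182 higher, 26 to 40 lower) and the interaction 212 to 285 (124 to 171 more positive, 88 to 114 more negative). Called list members numbered 63 to 66, against 66. DESeq2 called 439 genes and a fit of the 2 groups alone 408, of which 428 and 377 were among the 520. RLE factors called 519, no scaling factors 522, a filter of 1 CPM in 3 libraries 449, and no filter beyond 1 count 684. Without that filter BMP4 called 96 genes lower (33 with it) and the interaction 460 (260), 308 of them more positive (155). That setting tested 41229 genes in place of 19603. No result changed direction under the alternatives run. Leaving out 3 libraries of other groups that stand apart gave 531.

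Same-numbered replicates at 36 h and 24 h with Activin and BMP4 had correlations of their deviations of 0.252, 0.030 and 0.066, not all above 0.1, so the numbers were not taken to pair libraries. A replicate block called 518 genes (405 higher, 113 lower), 227 with BMP4 and 260 for the interaction. Genes of few counts (MESP2, FOXA2, HAND2, CFC1) are limited by depth, and small changes in them were not detectable here.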
